A study of Mus musculus with 12 samples.

Results

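The genes described here are those of the insulin-like growth factor (IGF) system: the ligands Igf1 and Igf2, the receptors Igf1r and Igf2r, and the binding proteins Igfbp2, Igfbp3, Igfbp4, Igfbp5, Igfbp6 and Igfbp7. They were taken by symbol from the deposited count table, which holds 10 of them among 56860 named genes, and all 10 were among the 16600 genes tested. The libraries came from primary mouse oligodendrocytes (OLs) of the strain C57BL/6J, 6 treated with siEgr2, which targets the transcription factor Egr2, and 6 with the scrambled control siNC, each for 48 h. The labels give the tissue as medial prefrontal cortex, whereas the methods describe the cortex of newborn mice, from which cells carrying the surface antigen O4 were captured on beads, expanded with PDGF-AA and then matured. The maturation medium contained insulin, a hormone whose receptor shares its downstream pathway with the IGF-1 receptor. The medium used during the 48 h of treatment is not stated. The labels do not say whether the libraries of a group came from separate animals or cultures, so p-values measure the spread between these libraries, which may be technical.

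IGF1 and IGF2 are secreted peptides that act mainly through the IGF-1 receptor, a tyrosine kinase that signals through IRS adaptors, PI3K and AKT. The IGF-2 receptor has no kinase, binds IGF2 for uptake and degradation, and also carries newly made lysosomal enzymes that bear mannose 6-phosphate. The IGF binding proteins hold the ligands outside the cell, where they lengthen their lifetime and either restrain or assist their access to the receptor. In the developing brain, IGF1 is known as a survival and growth signal for cells of the oligodendrocyte lineage.

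The libraries differed in more than the treatment. Total counts were 28682946 to 39383014 in the siNC libraries and 8034251 to 16683677 in the siEgr2 libraries. The share of counts on Rn18s-rs5, a copy of 18S ribosomal RNA, was 0.142% to 1.05% in siNC and 10.5% to 16.5% in siEgr2. Depth, ribosomal RNA share and treatment thus separate the libraries in the same way, and their parts cannot be told apart. Egr2 itself was at 3.89 to 7.06 CPM (counts scaled to a common library size, by TMM) in siNC and at 2.22 to 4.86 CPM in siEgr2. The groups overlapped, and Egr2 did not pass the test (log2 fold change -0.51, SE 0.21, adjusted p = 0.0981). Among cell type markers, the summed level of 9 astrocyte markers was 8250 to 8950 CPM in siNC and 5290 to 5980 CPM in siEgr2, with 5 of the 9 called lower, against 5.08% of all tested genes, and none higher. Gfap, the most abundant of them, averaged 4777 CPM in siNC and 3242 CPM in siEgr2. The summed level of 8 oligodendrocyte precursor markers was 5110 to 5460 CPM in siNC and 6340 to 6470 CPM in siEgr2, with 2 of the 8 called higher (Pdgfra and Cspg4), against 2.63% of all tested genes, none lower, and 5 higher without overlap, against 4.15% of all. That of 9 markers of myelinating oligodendrocytes was 7280 to 8300 and 6840 to 7120 CPM, with none called, 2 lower without overlap, against 7% of all genes, and 3 lower by adjusted p alone, against 11.3% of all. Of these 9 markers, 9 lay below 0, with a median log2 fold change of -0.18. The markers fit a culture of the oligodendrocyte lineage that also held astrocyte transcripts. In such bulk samples, fewer cells of a type and less RNA per cell cannot be told apart.

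The windows upstream of the start sites of 4 members are shown first, those of the 3 most abundant binding proteins and that of Igf2r, the only member with a match to the Egr core below. Sequences are RefSeq promoters on the mouse build GRCm38.p6, 5′ to 3′ on the strand of the gene, each covering the 150 bases before an annotated start, and capitals mark motif matches. Igfbp2 lies at chr1:72824330-72824479 (plus strand, the first of its annotated starts), Igfbp5 at chr1:72874866-72875015 (minus), Igfbp3 at chr11:7213924-7214073 (minus) and Igf2r at chr17:12769707-12769856 (minus).
Igfbp2: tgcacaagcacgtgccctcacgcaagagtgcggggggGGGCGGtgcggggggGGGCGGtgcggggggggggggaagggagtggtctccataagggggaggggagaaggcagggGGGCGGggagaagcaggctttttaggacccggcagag
Igfbp5: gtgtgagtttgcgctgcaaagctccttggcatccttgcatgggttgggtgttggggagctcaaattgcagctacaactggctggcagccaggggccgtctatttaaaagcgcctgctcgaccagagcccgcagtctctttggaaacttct
Igfbp3: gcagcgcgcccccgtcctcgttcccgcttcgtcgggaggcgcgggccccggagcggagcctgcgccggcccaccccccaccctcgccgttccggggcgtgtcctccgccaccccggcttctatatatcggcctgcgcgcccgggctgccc
Igf2r: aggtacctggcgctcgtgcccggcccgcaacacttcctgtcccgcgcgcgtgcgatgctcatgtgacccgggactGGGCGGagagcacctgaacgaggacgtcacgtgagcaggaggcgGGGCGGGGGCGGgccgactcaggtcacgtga

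Proteins of the Egr family bind GC-rich elements of the form GCGNGGGCG, and Sp1 and related factors bind the GC box GGGCGG. Both were searched on both strands, together with the TATA box TATAAA, in windows of 250 bases before to 50 bases after each start, 14 windows for the 10 members and 32851 windows for all genes. GCGNGGGCG was found in 1 member, Igf2r, where GCGGGGGCG starts at base -29 and overlaps 2 GC boxes. It was found in 5.55% of all windows and in 6.27% of all 27025 genes. The stricter form GCGTGGGCG was found in 0 of the members and in 0.707% of all genes. The GC box was found in 5 members, Igf2, Igf1r, Igf2r, Igfbp2 and Igfbp7, against 38.2% of all genes, and Igfbp2 holds 3 of them upstream of its first start. TATAAA was found in 2 members, Igfbp4 at base -28 and Igfbp6 at base -148 on the opposite strand, against 15.7% of all genes. The windows shown for Igfbp3 and Igfbp5 hold none of these letters, which says nothing about the binding of a factor. The 250 bases upstream of these starts had a GC content of 73.2% for Igfbp3, 69.2% for Igf2r, 67.2% for Igfbp2 and 58.8% for Igfbp5, against a median of 52.4% for all windows.

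Transcripts of 5 of the 10 members fell with siEgr2: both ligands and the 3 most abundant binding proteins, Igfbp2, Igfbp3 and Igfbp5. None rose, and neither receptor was called. Called genes are those past both limits in edgeR's quasi-likelihood test across all genes, an adjusted p below 0.05 and an absolute log2 change above 0.5. By this rule 5.08% of all tested genes were called lower (844 of 16600) and 2.63% were called higher. Scaled by library size alone, which shifts the median of all genes by -0.18 on the log2 scale, 7 members, 1737 genes in all, were called lower and 237 genes higher. The estimated log2 fold change was below 0 for 10 of 10 members, with a median of -0.53, against a median of 0.0046 over all tested genes. The libraries of the groups did not overlap, with siEgr2 lower, for 4 members, Igf1, Igfbp2, Igfbp3 and Igfbp5, as against 7% of all tested genes, and siEgr2 was the higher group without overlap for 0 members and 4.15% of all genes. Counting adjusted p alone, 6 of the 10 members were lower, against 11.3% of all genes. The sixth was Igfbp7.

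**Figure D1:**
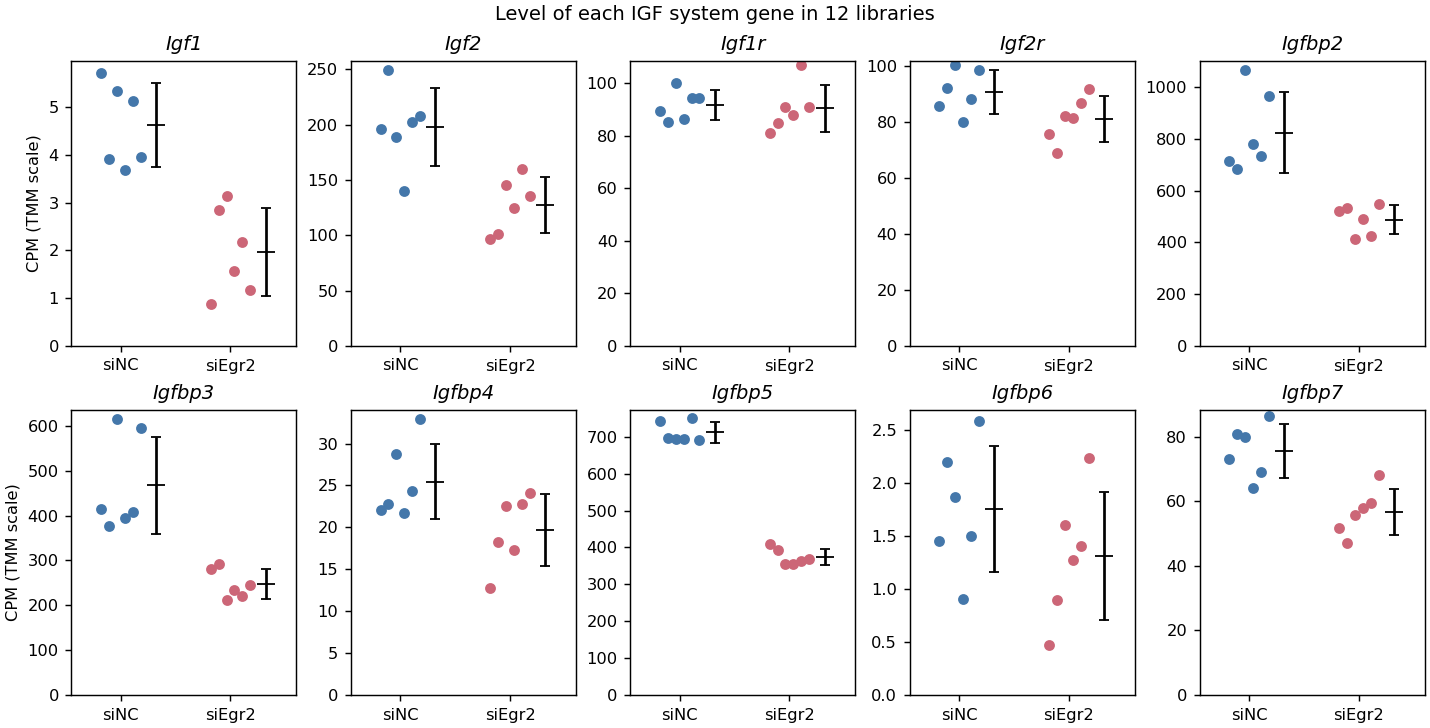
Level of each of the 10 IGF system genes, in CPM on the TMM scale from 0, with 1 point per library (6 siNC in blue, 6 siEgr2 in red) and the mean ± SD beside each group. The groups are apart for Igf1, Igfbp2, Igfbp3 and Igfbp5 and overlap for the other 6 genes.

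Igf1, the growth-promoting ligand also made by the liver and by glia, was a rare transcript here. Its level in the siNC libraries was 3.69 CPM at the lowest, 4.54 at the median and 5.73 at the highest, and in the siEgr2 libraries 0.874, 1.87 and 3.15 CPM. Every siEgr2 library was below every siNC library. It fell from a mean of 4.63 ± 0.877 CPM to 1.96 ± 0.918 CPM (SD, n = 6 each), a log2 fold change of -1.23 (SE 0.27, 95% interval -1.80 to -0.66, adjusted p = 0.00375). This was the largest fold change among the 10 members and also one of the least precise, since the siNC libraries held 126 to 197 reads of it and the siEgr2 libraries 12 to 51. The gene lies on chromosome 10 (GRCm38, chr10:87858265-87937042, plus strand).

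Igf2, the fetal growth factor expressed from the paternal allele, was 140.2 CPM at the lowest, 199 at the median and 249.8 at the highest in siNC, and 96.6, 130.3 and 160.2 CPM in siEgr2. The ranges overlapped, since the lowest siNC library, replicate 4, lay below the 2 highest siEgr2 libraries. It fell from a mean of 197 ± 35.3 CPM to 127 ± 24.9 CPM (SD, n = 6 each), a log2 fold change of -0.63 (SE 0.15, 95% interval -0.97 to -0.30, adjusted p = 0.0131). This call was lost when siNC replicates 3 and 6 were left out together (adjusted p = 0.0572, log2 fold change -0.63), where adjusted p over all 23 alternatives ranged from 5.80e-05 to 0.0572. Igf2 is also made by fibroblasts of the brain coverings and by pericytes, which the dissection and the O4 capture were meant to leave behind, since coverings and vessels were stripped before the cortex was cut. Their 8 markers had a summed level of 590 to 1010 CPM in siNC and 597 to 741 CPM in siEgr2, with 2 of the 6 tested called lower, against 5.08% of all genes. By adjusted p alone 3 of the 6 were lower, against 11.3% of all genes, and 6 of 6 lay below 0, with a median log2 fold change of -0.36. Their part in the result was not tested. The gene lies at chr7:142650766-142666816 on the minus strand, and the annotation places Igf2os on the opposite strand (at most 27 reads in any library) and Gm49394, a protein-coding gene that spans nearly all of Igf2, on the same strand (at most 7 reads). How reads were shared between Igf2 and Gm49394 is not stated, so the split between them is uncertain. H19, the maternally expressed RNA 72622 bases away in the same imprinted cluster, averaged 428 ± 49.6 CPM in siNC and 380.0 ± 62.2 CPM in siEgr2 and did not pass the test (log2 fold change -0.17, adjusted p = 0.347).

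The difference between the changes of Igf1 and Igf2 did not pass the test. The ratio of Igf1 to Igf2 was taken within each library. Its mean was -5.27 ± 0.34 on the log2 scale of CPM + 0.5 in siNC and -5.76 ± 0.53 in siEgr2, a difference of -0.49 (two-sided exact permutation test over 924 assignments, p = 0.0844, adjusted p = 0.127 over 3 ratios). The difference depended on the value added to CPM, -0.67 with 0.1 and -0.14 with 2 in place of 0.5, and passed the threshold with neither. The smallest p this design allows is 0.00216.

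Neither receptor was called. Igf1r, the signaling receptor, was 85.3 CPM at the lowest, 91.9 at the median and 100.3 at the highest in siNC, and 81.1, 89.5 and 107 CPM in siEgr2, so the siNC range lay inside the siEgr2 range. The log2 fold change was -0.020 (SE 0.063, 95% interval -0.15 to 0.11, adjusted p = 0.862), an interval that leaves out changes past the fold threshold of 0.5 in either direction. Its sign turned when single libraries were left out. Scaled by library size alone, which also lowers the median of all genes, the log2 fold change of Igf1r was -0.20 (adjusted p = 0.035). That was short of the fold threshold. Igf2r, the receptor that clears IGF2, was 79.9, 90.2 and 100.2 CPM in siNC and 68.8, 81.7 and 91.8 CPM in siEgr2 (lowest, median and highest), with overlapping ranges. Its log2 fold change was -0.16 (SE 0.071, 95% interval -0.31 to -0.014, adjusted p = 0.121). It was -0.077 with libraries thinned to the smallest total, -0.094 without siNC replicates 3 and 6, and -0.35 scaled by library size alone, with adjusted p from 0.00142 to 0.621 over the alternatives, under none of which it was called. Igf1r lies at chr7:67952827-68233668 (plus strand) and Igf2r at chr17:12682406-12769664 (minus strand), where it overlaps the antisense RNA Airn (20 to 98 reads per library). Whether counting used the strand is not stated, so reads of such overlapping genes cannot be told apart.

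The balance of the receptors did not differ past the threshold. The ratio of Igf1r to Igf2r within a library averaged 0.016 ± 0.089 on the log2 scale in siNC and 0.16 ± 0.12 in siEgr2, a difference of 0.14 (two-sided exact permutation test, p = 0.0498, adjusted p = 0.127 over 3 ratios). It passed the threshold only without siEgr2 replicate 6 (difference 0.18, adjusted p = 0.039), among all alternatives run for this ratio, whose adjusted p ranged from 0.039 to 0.195.

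**Figure D2:**
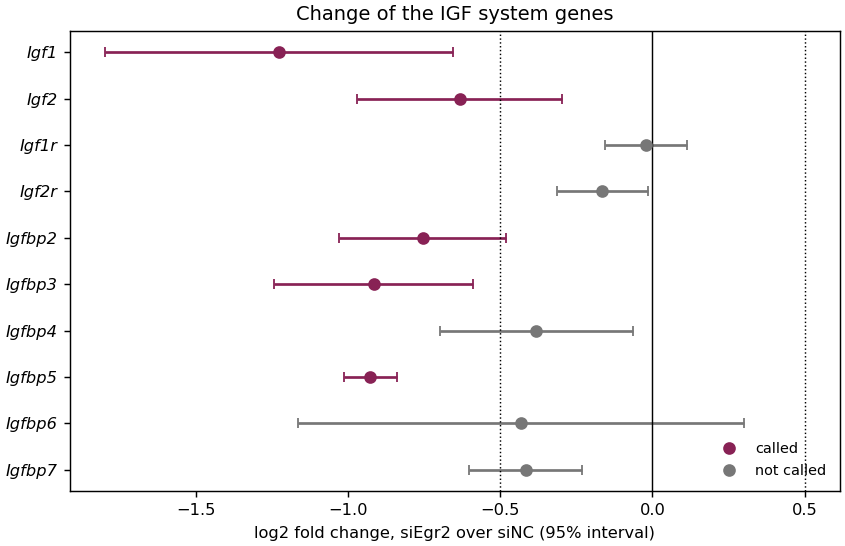
Log2 fold change of each member, siEgr2 over siNC, with its 95% interval from the edgeR fit and dotted lines at the fold threshold of 0.5 in either direction. The 5 called genes lie between -1.23 and -0.63, and the receptors lie at -0.020 (Igf1r) and -0.16 (Igf2r).

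The binding proteins made up most of the transcripts of this system. Igfbp2, the main IGF binding protein of fetal and neonatal brain, was 682 CPM at the lowest, 757 at the median and 1068 at the highest in siNC, and 414, 506 and 547 CPM in siEgr2. The groups did not overlap, and the siNC libraries were uneven, with replicates 3 and 6 at 1068 and 968 CPM and the other 4 at 682 to 781 CPM. It fell from a mean of 824 ± 157 CPM to 488 ± 56.4 CPM (SD, n = 6 each), a log2 fold change of -0.75 (SE 0.12, 95% interval -1.03 to -0.48, adjusted p = 0.00127). Without siNC replicates 3 and 6 the log2 fold change was -0.57, and the gene was still called. Igfbp2 ranked 114 by mean level among the tested genes.

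Igfbp3, which carries most IGF in blood together with the acid-labile subunit, behaved alike. Its level was 376 CPM at the lowest, 411 at the median and 615 at the highest in siNC, and 211, 239.9 and 291 CPM in siEgr2. The groups did not overlap, and replicates 3 and 6 were again the highest siNC libraries, at 615 and 595 CPM. It fell from a mean of 467 ± 108 CPM to 247 ± 32.5 CPM (SD, n = 6 each), a log2 fold change of -0.92 (SE 0.15, 95% interval -1.24 to -0.59, adjusted p = 0.00117). Without those 2 libraries the log2 fold change was -0.69, and the gene was still called.

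Igfbp5, a binding protein that attaches to extracellular matrix, was 690.1 CPM at the lowest, 696 at the median and 752 at the highest in siNC, and 354, 366 and 410.1 CPM in siEgr2. Libraries within a group were close together, and the gap between the groups was wider than either range. It fell from a mean of 712 ± 28.1 CPM to 374 ± 22.7 CPM (SD, n = 6 each), a log2 fold change of -0.93 (SE 0.041, 95% interval -1.01 to -0.84, adjusted p = 4.66e-10). Its estimate was the most precise among the called members, on 21492 to 28820 reads in the siNC libraries and 2834 to 6100 in siEgr2.

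Igfbp2 and Igfbp5 are neighbors on chromosome 1, Igfbp2 at chr1:72824503-72852474 on the plus strand and Igfbp5 at chr1:72857932-72874884 on the minus strand, with 5457 bases between them. The ratio of Igfbp2 to Igfbp5 within a library averaged 0.19 ± 0.30 on the log2 scale in siNC and 0.38 ± 0.14 in siEgr2, a difference of 0.19 (two-sided exact permutation test, p = 0.201, adjusted p = 0.201 over 3 ratios). Igfbp3 lies at chr11:7206086-7213923 on the minus strand, 3539 bases from Igfbp1, the binding protein of the liver, which had 0 to 4 reads per siNC library and 0 reads in every siEgr2 library and was not tested.

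The other 3 binding proteins were not called. Igfbp7, which binds IGF weakly and is known as a matrix protein of vessels, was 64.1, 76.6 and 86.3 CPM in siNC and 47.1, 56.9 and 68.2 CPM in siEgr2 (lowest, median and highest), with overlapping ranges. It passed the adjusted p and missed the fold threshold (log2 fold change -0.42, SE 0.087, 95% interval -0.60 to -0.23, adjusted p = 0.00266). The end of Igfbp7 at chr5:77349240-77408041 (minus strand) overlaps Polr2b on the opposite strand, a gene with 1048 to 4858 reads per library. Igfbp4, a binding protein that inhibits IGF and is cut by the protease PAPP-A, was 21.7, 23.6 and 33 CPM in siNC and 12.8, 20.4 and 24.1 CPM in siEgr2 (log2 fold change -0.38, SE 0.15, 95% interval -0.70 to -0.065, adjusted p = 0.0873). It was -0.22 without siNC replicates 3 and 6 (adjusted p = 0.371, with a range of 0.00946 to 0.371 over the alternatives). Igfbp6, which prefers IGF2, was near the limit of detection, at 31 to 108 reads in the siNC libraries and 7 to 26 in siEgr2. Its 95% interval of -1.17 to 0.30 left a fall of the size of Igfbp2 as well as no change within reach (log2 fold change -0.43, adjusted p = 0.426). The estimate was -0.029 with every library thinned to the smallest total, -0.25 without siEgr2 replicate 1 and -0.22 without siNC replicates 3 and 6. In the other direction, it was -0.65 without siEgr2 replicate 6 and -0.62 scaled by library size alone. Igfbp6 was not called under any alternative run. Igfbp4 lies at chr11:99041244-99054392 and Igfbp6 at chr15:102144362-102149511, both on the plus strand.

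To compare levels between genes, CPM was divided by the length of the union of annotated exons in kb. In siNC, Igfbp2 stood highest at 446 ± 84.8 CPM per kb, followed by Igfbp3 (149 ± 34.4), Igfbp5 (118 ± 4.68), Igfbp7 (62.6 ± 6.86) and Igf2 (34.5 ± 6.17). Igf2r (9.76 ± 0.836), Igfbp4 (5.76 ± 1.02) and Igf1r (5.46 ± 0.341) followed, with Igfbp6 (1.58 ± 0.535) and Igf1 (0.467 ± 0.0885) last, all as CPM per kb (SD, n = 6). Neighbors in this order whose ranges overlapped were Igfbp3 with Igfbp5 and Igfbp4 with Igf1r. In siEgr2 the order was the same except that Igf1r (5.39 ± 0.538 CPM per kb) stood above Igfbp4 (4.45 ± 0.974 CPM per kb), and the same pairs overlapped. The 6 binding proteins summed to 680 to 965 CPM per kb in siNC, with a median of 720, and to 404 to 499 CPM per kb in siEgr2, with a median of 470.

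The makeup of the binding protein transcripts overlapped between the groups. Per unit of length, Igfbp2 made up 56.7% ± 2.31 of the sum in siNC and 57.6% ± 1.74 in siEgr2, Igfbp3 18.9% ± 1.43 and 17.2% ± 1.25, and Igfbp5 15.4% ± 2.50 and 13.6% ± 0.925 (SD, n = 6 each, no test). Igfbp7 took 8.07% ± 1.04 in siNC and 10.3% ± 1.58 in siEgr2, and Igfbp4 (0.735% and 0.983%) and Igfbp6 (0.201% and 0.261%) took the least. For every one of the 6 genes the ranges of the shares overlapped between the groups. The shares themselves depend on the length used. Scaled by coding length, Igfbp5 took 36.5% ± 4.74 in siNC, close to the 36.9% ± 2.75 of Igfbp2 and above the 21.8% ± 2.37 of Igfbp3, with a coding part of 813 bases in an exon union of 6006 bases for Igfbp5.

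The relation of Igfbp2 with Igfbp3 across libraries of a group did not pass the test after adjustment. In siNC, Pearson's r of log2 of CPM + 0.5 was 0.96 (exact permutation p = 0.0333, adjusted p = 0.0834 over 4 relations, n = 6) and Spearman's rho was 0.77 (exact p = 0.103, adjusted p = 0.181). In siEgr2, r was 0.82 (exact permutation p = 0.0417, adjusted p = 0.0834, n = 6) and rho was 0.83 (exact p = 0.0583, adjusted p = 0.181). Pearson's r rests on few libraries, since it was 0.33 in siNC without replicates 3 and 6 and 0.40 in siEgr2 without replicates 3 and 5, the libraries farthest from the median of Igfbp2. Igfbp5 with Igfbp2 gave r = -0.55 in siNC (exact permutation p = 0.247) and r = 0.59 in siEgr2 (exact p = 0.217), with rho of -0.71 and 0.60. Both had an adjusted p of 0.247, and without the 2 farthest libraries r was -0.12 and 0.42. The siNC libraries with the most Igfbp2, replicates 3 and 6, also had the highest Rn18s-rs5 shares of their group, 1.05% and 0.981%. The siEgr2 libraries with the least, replicates 3 and 5, had the lowest shares of theirs, 10.5% and 10.7%. The part of ribosomal RNA in these levels was not tested.

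**Figure D3:**
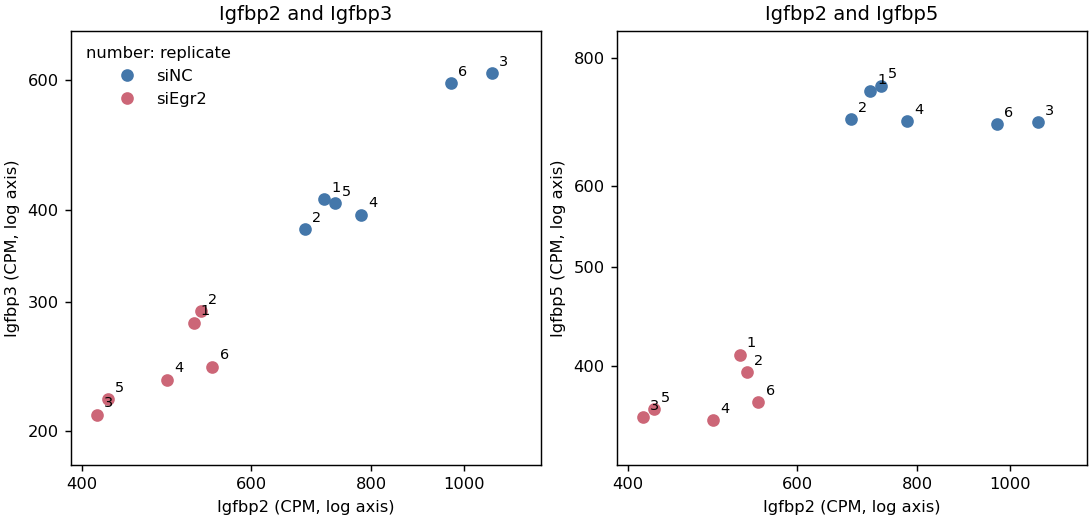
Level of Igfbp3 (left) and Igfbp5 (right) against Igfbp2 in each of the 12 libraries, CPM on log axes, with replicate numbers beside the points. In siNC, replicates 3 and 6 are highest for both Igfbp2 and Igfbp3, whereas Igfbp5 keeps a range of 690.1 to 752 CPM in siNC and 354 to 410.1 CPM in siEgr2.

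The genes whose variation within groups was most like that of the 3 most abundant members differed from member to member. Likeness was Pearson's r of log2 of CPM + 0.5 over the 12 libraries after each group mean was subtracted, given as a description, since the libraries share depth and ribosomal RNA share, and 12399 genes were compared. For Igfbp2 the closest were Prkd1 (0.97), Camk1 (0.95) and Cdr2l (0.94), for Igfbp3 they were Septin9 (0.96), Rhob (0.95) and Gpd1 (0.94), and for Igfbp5 they were Ccn5 (0.95), Ap1s1 (0.93) and Mrpl18 (0.92). By the same measure Igfbp2 and Igfbp3 had r = 0.92 with each other, so their differing lists do not show separate variation of the pair. Igfbp5 had r = 0.016 with Igfbp2 and 0.17 with Igfbp3. Between the groups, Ccn5, a matricellular protein, was called lower (log2 fold change -1.59, adjusted p = 0.000492), as was Septin9 (-0.60, adjusted p = 2.5e-05). Camk1 was higher in siEgr2 by a log2 fold change of 0.41, below the fold threshold (adjusted p = 0.000208), so likeness within groups did not go with one direction between them.

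Since astrocyte markers were lower in siEgr2, each member was also set against their sum in the same library. Per 1000 CPM of astrocyte markers, Igfbp5 was 79.6 to 84.6 CPM in siNC and 61.6 to 71.5 CPM in siEgr2, without overlap and lower, as were 0.361% of all tested genes on this scale. Gfap made up 55.2% of the siNC sum, and single astrocyte markers changed by -0.85 (Slc1a3) to -0.018 (S100b) on the log2 scale, against -0.93 for Igfbp5. With Gfap left out of the sum, a choice made after the values were seen, Igfbp5 was 175 to 193 CPM in siNC and 143 to 162 CPM in siEgr2, again without overlap and lower, as were 0.283% of all tested genes on that scale. Igf1r was 9.90 to 11.9 CPM in siNC and 14.1 to 18.9 CPM in siEgr2 on this scale, without overlap and higher, as were 55.2% of all tested genes. The mean astrocyte sum was 1.51 times higher in siNC than in siEgr2, so the scale itself moves a gene of equal CPM upward in siEgr2, and nothing about Igf1r is read from it. The other 8 members overlapped, among them Igfbp2 at 79.9 to 126 and 75.1 to 91.5 CPM, Igfbp3 at 45.2 to 72.7 and 39.1 to 49.8 CPM, Igf2 at 16.1 to 30.3 and 16.8 to 28.3 CPM and Igf1 at 0.423 to 0.640 and 0.152 to 0.595 CPM, each given for siNC and siEgr2 in turn. The part of astrocyte transcripts in the fall of the members was not tested. Of the microglial markers, Aif1 and Itgam had no read, and 0 of the 5 tested were called. Endothelial markers summed to 25.9 to 35.0 CPM in siNC and 27.5 to 38.0 CPM in siEgr2, with Cldn5 at 0 reads. Of the 3 tested, 1 was called lower, against 5.08% of all tested genes, and none higher. The called gene was Flt1, at 3 to 22 reads per siEgr2 library. Kdr, the most abundant, averaged 25.6 CPM in siNC and 28.2 CPM in siEgr2 and was not called. Neuronal markers summed to 406 to 659 CPM in siNC and 394 to 633 CPM in siEgr2. Of the 7 tested, 1 was called lower, against 5.08% of all tested genes, and none higher. By adjusted p alone 2 of the 7 were lower, against 11.3% of all genes, and 1 was higher, against 8.57% of all genes.

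The other genes of the pathway are given by list, to be read against the 5.08% of all tested genes called lower. Of 10 genes that control how much IGF is free, 6 were tested, with 1 called lower, none higher and a median log2 fold change of -0.10. Htra1, a secreted serine protease that cuts IGF binding proteins, was 89.9, 104 and 120 CPM in siNC and 54.3, 68.0 and 86.6 CPM in siEgr2 (lowest, median and highest), without overlap. Its mean fell from 106 ± 11 to 68.4 ± 12.2 CPM (log2 fold change -0.63, SE 0.11, adjusted p = 0.000905). Pappa, the protease that releases IGF from Igfbp4, was low at 3.31 and 2.30 CPM and did not pass the test (log2 fold change -0.51, adjusted p = 0.184). Its inhibitors Stc1 and Stc2 were not called either (log2 fold changes 0.51 and -0.11, adjusted p = 0.616 and 0.801). Igfals, the acid-labile subunit, had no read, and Esm1 and Pappa2 were too low to test.

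Downstream of the receptors, 37 of 37 signaling genes were tested, with 1 called lower, none higher and a median log2 fold change of 0.0075. The one called was Foxo1, a transcription factor that AKT keeps out of the nucleus. It was 29.4, 31.4 and 32.5 CPM in siNC and 19.2, 21.6 and 23.6 CPM in siEgr2 (lowest, median and highest), without overlap, and its mean fell from 31.2 ± 1.11 to 21.6 ± 2.06 CPM (log2 fold change -0.53, SE 0.071, adjusted p = 5.38e-05). The insulin receptor Insr (log2 fold change -0.048, adjusted p = 0.711) and the adaptors Irs1 (-0.0065, adjusted p = 0.952) and Irs2 (-0.097, adjusted p = 0.172) did not pass the test. Counting adjusted p alone, 3 of the 37 were lower, against 11.3% of all genes, and 2 were higher, against 8.57% of all genes. Shc1, the adaptor toward RAS, passed the adjusted p with a log2 fold change of -0.43 (adjusted p = 0.000483), and Pik3cb, a catalytic subunit of PI3K, with 0.34 (adjusted p = 0.00575), both below the fold threshold, and the others were Foxo1, Socs3 (-0.13, adjusted p = 0.0434) and Rps6kb2 (0.23, adjusted p = 0.0369). Of 12 genes known as FOXO targets, 11 were tested and 0 were called, with a median of -0.030. Counting adjusted p alone, 3 of the 11 were lower, against 11.3% of all genes: Bcl6 (log2 fold change -0.35, adjusted p = 0.00202), Fbxo32 (-0.24, adjusted p = 0.00296) and Klf15 (-0.41, adjusted p = 0.0394).

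Genes tied to IGF2 or its receptor were not called. Of the 6 genes of the IGF2 locus and the IGF2 mRNA-binding proteins, 5 were tested, with a median of -0.17. Igf2bp3 and Igf2bp1, which bind the Igf2 mRNA, had log2 fold changes of -0.63 (adjusted p = 0.106) and -0.67 (adjusted p = 0.301) at means under 5 CPM. Of the 18 genes of the mannose 6-phosphate route, 0 were called. Of these, 17 lay below 0, against 49.1% of all tested genes, with a median of -0.19, and in 7 the groups did not overlap with siEgr2 lower, against 7% of all. Counting adjusted p alone, 8 of the 18 were lower, against 11.3% of all genes, and 0 of these reached the fold threshold. The cathepsins Ctsb (958 and 711 CPM, log2 fold change -0.43, adjusted p = 3.71e-07) and Ctsd (768 and 599.8 CPM, -0.36, adjusted p = 1.17e-06) and the hexosaminidase subunit Hexa (56.2 and 41.1 CPM, -0.45, adjusted p = 3.64e-05) were among these 8. M6pr, the other receptor of this route, was 66.9 CPM in siNC and 62.7 CPM in siEgr2 (log2 fold change -0.094, adjusted p = 0.182).

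**Figure D4:**
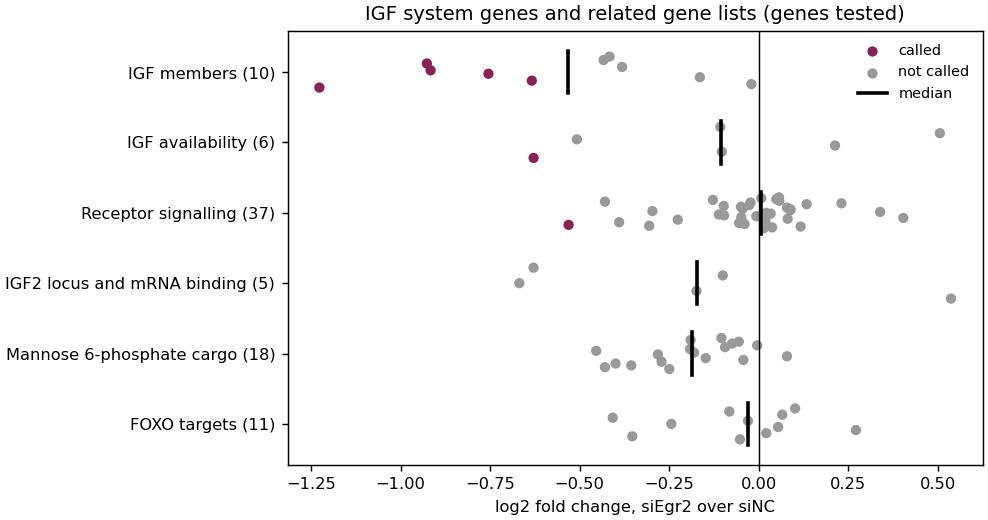
Log2 fold change, siEgr2 over siNC, of every tested gene of the IGF system and of 5 related lists, with the number tested in parentheses, called genes in purple and the median as a bar. The members have a median of -0.53, and the medians of the 5 lists lie between -0.19 and 0.0075.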

How the data were processed

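Total RNA was isolated with TRIzol and sequenced in reads of 50 bp after adapter ligation, and the authors deposited the resulting raw read counts by gene symbol, not normalized. The build is mm10 per the submitters' processing notes, and the aligner, counter and strand setting are not given in the sources used here. One blank entry without counts was left out. Counts were fitted with edgeR 4.0.16 under R 4.3.3, with limma 3.58.1 as an alternative (filterByExpr, TMM, robust quasi-likelihood test, no covariate, Benjamini-Hochberg over 16600 genes), and calls needed an adjusted p below 0.05 and an absolute log2 change above 0.5. The tool was tested on simulated data. No pair of libraries was a copy, since the chi-square per gene was 7.56 to 39.8 over 30 pairs within groups. Ratios and correlations used exact permutation tests (SciPy 1.17.1) on log2(CPM + 0.5). Gene positions and lengths are from GENCODE M21 (GRCm38), promoters from RefSeq, which matched 10 of 10 members. The members, lists and markers were chosen with earlier results of these data known. Named genes are the members, the called list genes and the 3 genes most like each of the 3 most abundant members (mean log2 CPM of at least 2), and other list genes named for their role were chosen after their values were seen. Depths from 8034251 to 39383014 counts limit rare transcripts in siEgr2. Alternatives were other scalings, DESeq2 1.42.0, voom, other filters, a replicate block, structural RNA left out, thinning to the smallest total, libraries left out and other thresholds, pseudocounts and lengths, and siNC replicates 3 and 6 left out together was added after seeing the data.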

Additional observations from a re-analysis of the deposited data

How the results depend on the processing

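The number of members called lower was 5 whichever single library was left out and 4 without siNC replicates 3 and 6, which lost Igf2, and 0 were called higher under every alternative run. A log2 fold change over 1 left 1 member lower (Igf1), with 196 genes lower and 177 higher in all, and no fold threshold gave 1877 lower and 1423 higher. Scaling by library size alone called 7 members lower, adding Igfbp4 (-0.56) and Igfbp7 (-0.60), with 1737 genes lower and 237 higher, and raised the called-lower counts to 2 for IGF availability, 3 for receptor signaling, 1 for the IGF2 locus, 4 for the mannose 6-phosphate route and 2 for FOXO targets. Thinning every library to the smallest total gave 636 genes lower and 270 higher. Leaving out single libraries gave 728 to 893 genes lower and 386 to 468 higher. The sign of Igf1r turned without siNC replicate 3 (0.0081), without siEgr2 replicate 1 (0.0066) and without siNC replicates 3 and 6 (0.025), each far from the threshold, and its log2 fold change was -0.076 to 0.0081 over the single libraries left out. Leaving out 1 library, the log2 ratio of Igf1r to Igf2r differed by 0.11 to 0.18 between the groups. The log2 ratio of Igf1 to Igf2 differed by -0.67 with a pseudocount of 0.1 and by -0.14 with 2, and passed the threshold with neither. With coding length in place of the exon union, the differences in share became 0.54 percentage points for Igfbp4 (from 0.25), 2.13 for Igfbp2 (from 0.878), -2.72 for Igfbp5 (from -1.78), 1.12 for Igfbp7 (from 2.24) and 0.036 for Igfbp6 (from 0.060), each in the same direction. Replicate numbers did not pair the samples, since the correlations of deviations lay between -0.057 and 0.073. With the replicate block, 5 members, 775 genes lower and 349 higher were called. The causes of these changes were not tested. At siEgr2 depth, Igf1 and Igfbp6 rest on at most 51 and 26 reads per library, which limits both.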
